A study of Mus musculus with 9 samples.

Results

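The miRNAs of the Sfmbt2 intron cluster, named miR-297, miR-466, miR-467 and miR-669, were followed in extracellular vesicles from cultured mouse podocytes, the cells of the glomerular filter that cover its capillaries. Members were chosen by name: all mouse miRNA identifiers with 1 of these 4 numbers followed by a letter, a hyphen or nothing, which gave 80 of the 1915 identifiers in the tables. Of these, 19 were listed with counts in at least 1 library, and because several had identical counts in all libraries they made up 13 distinct rows. The remaining 61 identifiers were listed at 0 in all 9 libraries. The tables hold no count from 1 to 9. A listed 0 can therefore be anything up to 9 reads and does not show absence.

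The vesicles came from a conditionally immortalized mouse podocyte cell line that had been differentiated for 10 days without interferon-γ, in medium with fetal bovine serum on collagen. The cells were then kept for 48 h in normal glucose (5.3 mM), in high glucose (30 mM), or in mannitol medium (24.7 mM mannitol added to 5.3 mM glucose), which matches the osmolality of high glucose. Each group had 3 libraries, and all came from the same cell line, which limits them as a model of podocytes in the body. Vesicles were precipitated with a polymer reagent, which also brings down other RNA carriers of the medium.

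Most of these miRNAs lie in an intron of Sfmbt2, a gene for a Polycomb group protein. Sfmbt2 is imprinted and expressed from the paternal allele in the mouse placenta, and its intron carries a large miRNA cluster, known from mouse and rat, that supports growth of the trophoblast. Cluster miRNAs are cut from hairpins of a long transcript, each hairpin giving a 5p and a 3p arm, and an arm recognises its targets mainly through the seed, bases 2 to 8. Many copies arose by duplication and hold runs of alternating U and G or C and A, so that related identifiers can share reads.

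Positions were taken from RefSeq and GENCODE annotation of the mouse build GRCm38 (mm10). By symbol or older symbol, 82 hairpins matched the 4 numbers. Of these, 72 lay on the plus strand of chromosome 2 between 10466663 and 10518279, a stretch of 51.6 kb inside a single intron, intron 10 of the GENCODE transcript used, and 10 lay on other chromosomes. Sfmbt2 itself spans 10370510 to 10595253. By identifier, 64 of the 80 members matched hairpins in the intron only, 9 matched hairpins elsewhere only, 5 matched both, and the 2 arms of miR-466a matched no hairpin of that letter. An unlettered Mir466 hairpin also lies in the intron.

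RefSeq sequences were at hand for 8 members, all from hairpins outside the intron, of which only miR-669n was listed in a library. How reads were assigned was not examined. The sequences are shown for their repeats, which can make reads hard to assign, with the seed in capitals, 5′ to 3′.
miR-669n: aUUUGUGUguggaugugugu
miR-466k: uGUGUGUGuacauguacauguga
miR-466j: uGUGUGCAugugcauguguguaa
miR-467h: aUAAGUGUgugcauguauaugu
miR-466q: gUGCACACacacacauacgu
miR-466i-3p: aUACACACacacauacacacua
miR-467f: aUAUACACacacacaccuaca
miR-467g: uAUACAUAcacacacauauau
The longest alternating run is of U and G in the first 4 and of C and A in the last 4, and all 8 seeds differ. In the same table the seed of miR-467h recurs only in miR-668-5p, and the other 7 seeds recur in no other mature sequence that it holds. A run of UGUGUGUG or ACACACAC, searched in the mature strand as written, was present in 6 of the 8 and in 11 of all 1679 mature names of the table (0.655%). The longest alternating run was 12 bases in miR-466q and miR-467f. No sequence of the remaining 72 identifiers was at hand, so their seeds and repeats entered neither search.

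The listed share of the members, 23.8%, was close to the 25.01% of all identifiers in the tables (479 of 1915). By number, 4 of 6 identifiers of miR-297, 7 of 31 of miR-466, 2 of 13 of miR-467 and 6 of 30 of miR-669 were listed. By arm, 5 of 33 identifiers named 5p and 12 of 35 named 3p were listed. These counts take each identifier singly. No listed 5p identifier shared its counts with another, whereas all listed 3p identifiers except miR-466d-3p and miR-669f-3p did. The arms therefore differ less by row than by identifier. The 3 listed 3p identifiers of miR-297 formed a single row. Only 3 identifiers, forming 2 rows, were listed in all 9 libraries: miR-669c-5p, and miR-669a-3p with miR-669o-3p. A further row, miR-466g, was listed in 8 libraries, and 5 rows were listed in a single library. By identifier, 3 of the 19 listed members were listed in all 9 libraries and 7 in a single library. Of the 479 listed identifiers of the whole table, 260 were listed in all 9 libraries and 63 in a single library.

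Nearly all counts of the members belonged to miR-669c-5p, an arm of the Mir669c hairpin on chromosome 2 at 10509296 to 10509404 in the Sfmbt2 intron; the miRNA has been reported to increase in ageing mouse liver. It had 6842 of the 7648 counts of the members over all libraries, or 89.5% with identical rows taken once. The share was lowest in normal glucose replicate 1, at 81.0% (95% Wilson interval 78.0% to 83.7%). It was highest in normal glucose replicate 2, at 97.1% (95.7% to 98.1%), and these intervals cover counting error only. Of the 738 member counts of normal glucose replicate 1, 83 were of miR-669n, whose hairpin lies outside the intron. All shares and means given here include it. The next lowest share was 84.9%, in high glucose replicate 3. The mean share of the normal glucose libraries was 88.5% ± 8.10, that of the mannitol libraries 91.3% ± 1.10 and that of the high glucose libraries 90.2% ± 4.58 (SD, n = 3 each). The 3p arm of the same hairpin, miR-669c-3p, was listed at 0 in all 9 libraries. Among all miRNAs miR-669c-5p ranked between 83 and 119 by count in a library, and 95 by its mean level.

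Levels are given as CPM, the count of a row scaled to all miRNA counts of its library. In normal glucose miR-669c-5p stood at 388, 742 and 717 CPM in replicates 1, 2 and 3. With mannitol it stood at 475, 274 and 704 CPM. In high glucose it stood at 454, 446 and 422 CPM. The high glucose libraries lay close together, between the lowest and the highest library of each of the other groups, so that the groups overlapped. The group means were 616 ± 197 CPM (normal glucose), 484.8 ± 215 CPM (mannitol) and 441 ± 16.7 CPM (high glucose), each with its SD over n = 3. Fewer vesicles of a kind and less of a miRNA per vesicle cannot be told apart in such values. In the deposited normalized values, in RPM, the spread was ordered differently: normal glucose stood at 31.99 ± 4.35, mannitol at 38.3 ± 26.5 and high glucose at 24.7 ± 9.11, with high glucose libraries at 15.6, 24.9 and 33.8.

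**Figure D1:**
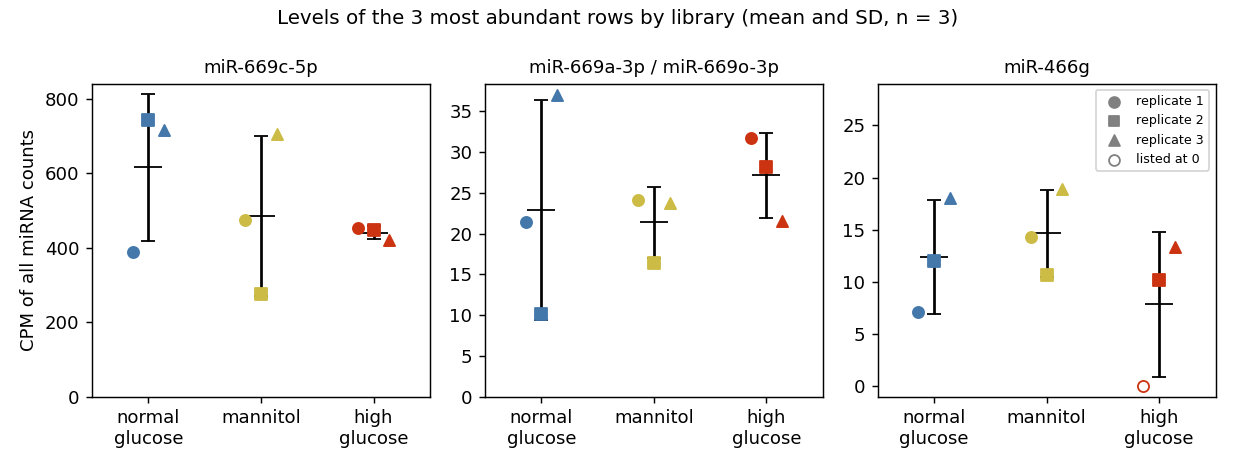
Level of the 3 most abundant rows in CPM (vertical axes, linear, each panel with its own scale) by treatment group, with 1 point per library, replicate number by marker shape, and mean and SD as bars (n = 3). The miR-669c-5p libraries of high glucose sit between 422 and 454 CPM, inside the range of both other groups, and miR-466g was listed at 0 in high glucose replicate 1.

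In second place came miR-669a-3p and miR-669o-3p, whose counts were identical, so that their reads cannot be assigned to either. By number and letter the first matches 12 hairpins in the intron, and the second matches Mir669o, at 10514300 to 10514395 on chromosome 2. This match does not tell the copies apart. A separate identifier, miR-669a-3-3p, listed at 0 in all 9 libraries, matched the same 12 hairpins. A role of miR-669a in holding back skeletal muscle differentiation of cardiac progenitor cells has been described. In normal glucose the row stood at 21.4, 10.1 and 37.0 CPM in replicates 1 to 3, with mannitol at 24.1, 16.4 and 23.8 CPM, and in high glucose at 31.7, 28.2 and 21.5 CPM. The widest spread was within normal glucose, whose lowest and highest libraries were the lowest and highest of all 9. Per count of this row there were 14.3 to 29.6 counts of miR-669c-5p in 8 libraries and 73.4 in normal glucose replicate 2, where the row had 11 counts.

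From Mir466g, at 10514595 to 10514674 on chromosome 2, miR-466g stood at 7.15, 11.96 and 18.1 CPM in normal glucose. It stood at 14.3, 10.7 and 18.9 CPM with mannitol, and at 0, 10.2 and 13.3 CPM in high glucose. These are 11 to 43 counts per library where listed, and the listed 0 of high glucose replicate 1 allows up to 9 reads, or 12.4 CPM, in that library. Between libraries of the same number, the listed value was lower in high glucose in 3 of 3 pairs against normal glucose and in 3 of 3 against mannitol. Both sets of pairs use the same high glucose libraries, and the second pair with mannitol was close, at 10.2 against 10.7 CPM. The share of all tested identifiers with such an order was not counted, so no result about miR-466g is drawn from it. In the first pair with normal glucose the order is not fixed, since 12.4 CPM lies above 7.15 CPM. Over all 3 libraries of a group, the groups overlapped.

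The other 10 rows had at most 27 counts in any library, with the exception of miR-669n. That identifier had 83 counts in normal glucose replicate 1 (53.9 CPM) and was listed at 0 in the other 8 libraries. Its hairpin is not in the Sfmbt2 intron but at chr3:115979902-115979955 (GRCm38), plus strand, antisense to Slc30a7, a zinc transporter gene. The hairpin is shown to place the mature part, in capitals, in its precursor.
Mir669n: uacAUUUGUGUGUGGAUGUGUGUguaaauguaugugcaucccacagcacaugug
In normal glucose replicate 1 it was the second most counted member, ahead of the 33 counts of miR-669a-3p. With 1 library listed, the value has no replicate check.

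The rows listed in a few libraries belonged mostly to the libraries numbered 3. With 16, 27 and 23 counts in replicate 3 of normal glucose, mannitol and high glucose, miR-467a-5p was listed in no other library. The same 3 libraries alone listed miR-466a-3p with the identical miR-466e-3p, at 13, 15 and 15 counts. With identical rows taken once, the members thus gave 2 of the 4 rows of the whole table that were listed in exactly the libraries numbered 3 (3 of 5 identifiers), and no identifier was listed in exactly those numbered 1 or 2. In normal glucose replicate 3 and high glucose replicate 3, the identical rows of miR-297a-3p, miR-297b-3p and miR-297c-3p had 13 and 14 counts. Mannitol replicate 3 and high glucose replicate 3 listed miR-466d-3p, at 21 and 13 counts. An exception was miR-669f-3p, with 13 counts in normal glucose replicate 1 and 10 in high glucose replicate 3.

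Of the rows listed once, miR-297b-5p had 16 counts and miR-669h-5p 11 counts in high glucose replicate 3. In mannitol replicate 3, miR-467b-5p, an arm of a miRNA reported to target lipoprotein lipase in macrophages, had 10 counts. In normal glucose replicate 3 the identical miR-466b-3p, miR-466c-3p and miR-466p-3p had 12 counts. Replicate 3 libraries listed 7, 7 and 10 member rows in the order normal glucose, mannitol, high glucose, against 2 to 5 in the other 6 libraries. Mannitol and high glucose replicate 3 were also the deepest libraries, with total miRNA counts of 2269776 and 2553690, but normal glucose replicate 3 had only 1107224. The smallest nonzero count of 10 equals 3.92 CPM in the deepest library and 13.8 CPM in the shallowest, high glucose replicate 1 (725211 counts), which listed 2 rows. The labels do not say that a number marks a shared day or batch, and its part in the listing was not tested.

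**Figure D2:**
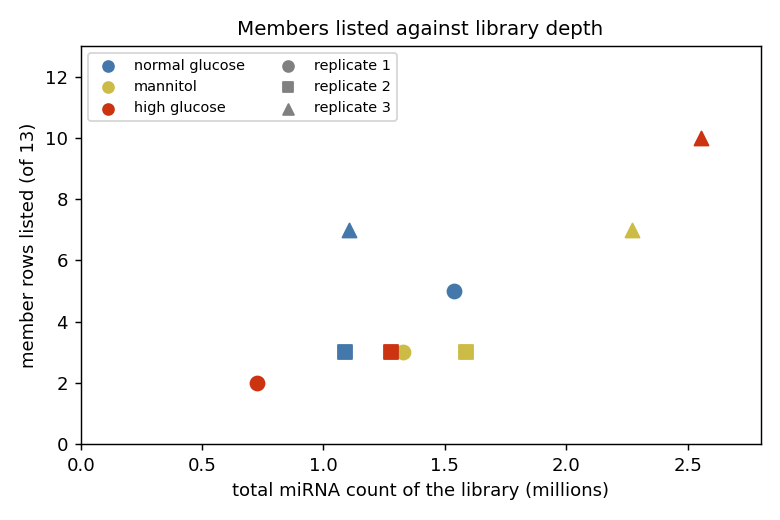
Number of member rows with counts (vertical axis, of 13) against the total miRNA count of the library in units of 1e+06 counts (horizontal axis), with groups by colour and replicate numbers by shape. The replicate 3 libraries listed 7, 7 and 10 rows and the others 2 to 5, and normal glucose replicate 3 lies above libraries of similar depth.

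Along the intron, 26 hairpins were the only copy of their letter. Of these, 11 had an arm listed in some library, at a median of 47.8 kb from the start of the intron. The 15 others lay at a median of 15.7 kb. For Mir466e, Mir466p, Mir297c and Mir669o the only listed row had counts identical to those of other identifiers. Reads of these rows cannot be placed at these hairpins alone, so the medians include hairpins whose listing is uncertain. Listed and unlisted hairpins overlapped along nearly the whole stretch, from 5.76 kb (Mir669f) to 56.7 kb (Mir669h) for those listed. Among the 10 hairpins from Mir669c to the downstream end, a boundary chosen after the values were seen, 6 had a listed arm, Mir669c, Mir669o and Mir466g among them. The neighbour upstream of Mir669c, Mir297c at 10509016 to 10509113, had only the miR-297 row of 13 and 14 counts, which other hairpins can also give. Apart from miR-669c-5p, no listed arm of a hairpin of the intron had a mean above 23.8 CPM.

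**Figure D3:**
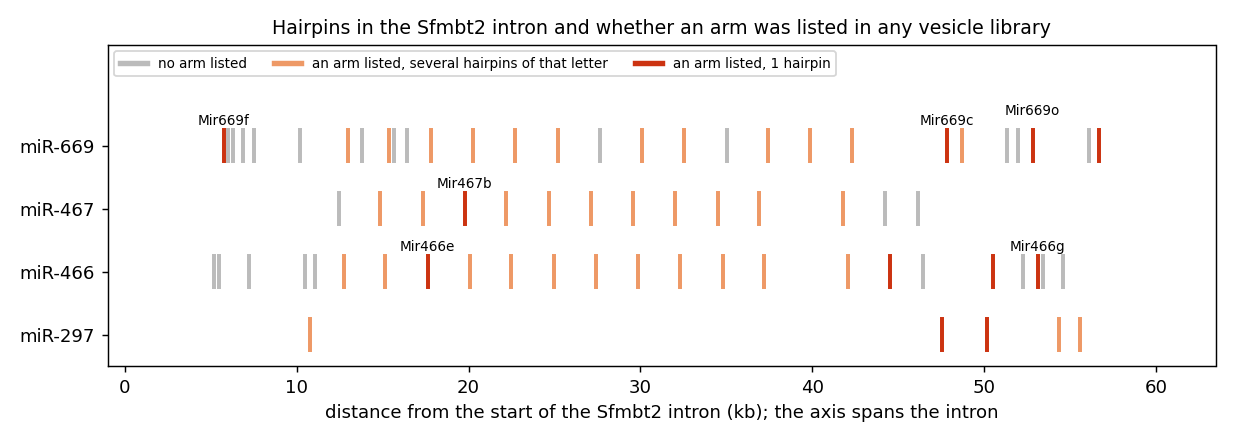
Hairpins of the Sfmbt2 intron by miRNA number (rows) along the distance from the start of the intron in kb (horizontal axis). Grey marks a hairpin with no listed arm. Red marks a listed arm with 1 hairpin of its letter in the intron, and orange a listed arm with several. Red includes arms whose counts were identical to those of other identifiers. The unlettered Mir466 is grey because no identifier matched it, and colours are not levels.

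High glucose was compared with normal glucose for the effect of the whole treatment, and with mannitol for glucose at matched osmolality. Mannitol was compared with normal glucose for osmolality alone. In edgeR's fit of all 9 libraries 361 identifiers passed the expression filter, among them 5 member identifiers in 4 rows: miR-669c-5p, miR-669a-3p with miR-669o-3p, miR-466g and miR-467a-5p. None of the 4 rows passed in any comparison after Benjamini-Hochberg adjustment in edgeR, where 0% of all 361 tested identifiers passed in each comparison. None had an unadjusted p under 0.05 in edgeR, DESeq2 or limma-voom, and the smallest unadjusted p of a row in edgeR was 0.253. Over all 361 identifiers, 10, 19 and 5 had an unadjusted p under 0.05 in edgeR in the order of the comparisons above, while DESeq2 called 0, 1 and 0 and limma-voom 0 in each. All 3 comparisons share libraries with one another and are not independent.

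Against normal glucose, the fitted log2 difference of miR-669c-5p in high glucose was -0.40 (SE 0.36, interval at 95% from -1.18 to 0.37, edgeR adjusted p = 0.995). Of the 9 pairs of libraries, high glucose was higher in 3. Without normal glucose replicate 2 the value was -0.16, and without normal glucose replicate 1 it was -0.67. The row of miR-669a-3p had 0.39 (SE 0.58, 95% interval -0.86 to 1.63), or 0.82 without normal glucose replicate 3 and 0.043 without normal glucose replicate 2. For miR-466g the value was -0.44 (SE 1.27, 95% interval -3.15 to 2.27), and it was 0.069 without high glucose replicate 1. With the replicate number as a block it was -0.76 (edgeR adjusted p = 0.892). The intervals therefore left room for changes in both directions, widest for miR-466g. The fitted value of miR-467a-5p is not given, because 2 of 3 libraries in each group were listed at 0. Of the other 3 rows 1 was above 0, and their median was -0.40, beside -0.041 for all tested identifiers.

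Against mannitol, the log2 difference of miR-669c-5p in high glucose was 0.029 (SE 0.36, interval at 95% from -0.75 to 0.80, edgeR adjusted p = 0.994). Its mean CPM was nonetheless lower in high glucose, because the fit scales libraries by TMM and the CPM by the total count. The sign turned in 8 of 17 alternatives, and the value was 0.43 without mannitol replicate 3 and -0.18 without mannitol replicate 2. The row of miR-669a-3p had 0.50 (SE 0.58, 95% interval -0.75 to 1.74), and high glucose was higher in 7 of 9 pairs of libraries. For miR-466g it was -0.63 (SE 1.27, 95% interval -3.33 to 2.07), with -1.19 without high glucose replicate 3 and -0.15 without high glucose replicate 1. With the replicate number as a block it was -1.09 (edgeR adjusted p = 0.804). Of the 3 rows 2 were above 0, and their median was 0.029, beside -0.040 for all tested identifiers.

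For mannitol against normal glucose, the log2 difference of miR-669c-5p was -0.43 (SE 0.36, interval at 95% from -1.21 to 0.34, edgeR adjusted p = 0.9996). Without mannitol replicate 3 the value was -0.84, and without mannitol replicate 2 or normal glucose replicate 2 it was -0.13. The row of miR-669a-3p had -0.11 (SE 0.58, 95% interval -1.35 to 1.13), or 0.38 without normal glucose replicate 3. For miR-466g it was 0.19 (SE 1.26, 95% interval -2.50 to 2.88), or -0.094 without normal glucose replicate 1. Of the 3 rows 1 was above 0, and their median was -0.11, beside 0.011 for all tested identifiers. When each listed 0 was set to 9 reads, edgeR called miR-669n lower with mannitol (-2.14, adjusted p = 0.0123). It was the only 1 of 479 tested identifiers called in that setting and comparison. The call rests on normal glucose replicate 1 alone, and miR-669n did not pass the expression filter of the main fit.

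**Figure D4:**
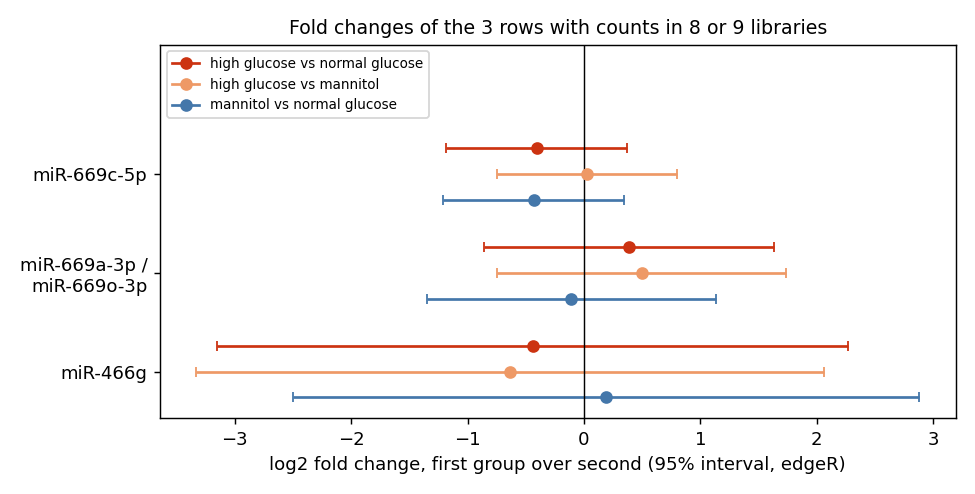
Log2 fold changes from the joint edgeR fit with 95% intervals (horizontal axis) for the 3 rows with counts in 8 or 9 libraries, in 3 comparisons by colour. All 9 intervals cross 0, and those of miR-466g reach from -3.33 to 2.88.

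Libraries of the groups overlapped for all 4 rows in all 3 comparisons. Over all 361 identifiers the share with no overlap was 2.49% higher and 6.93% lower in high glucose against normal glucose, 2.49% higher and 7.76% lower against mannitol, and 2.22% higher and 1.11% lower for mannitol against normal glucose. With 4 rows no count of members could be set apart from these shares.

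Summed over the 13 rows, the members had 479, 764 and 821 CPM in the normal glucose libraries. They had 514, 302 and 779 CPM with mannitol and 485.4, 484.9 and 497 CPM in high glucose. The ratio of means was 0.710 for high against normal glucose, 0.920 for high glucose against mannitol and 0.772 for mannitol against normal glucose, and all groups overlapped. In deposited normalized values the last ratio was 1.17 and that against mannitol 0.661, so that the direction of the mannitol ratio depended on the denominator. Without mannitol replicate 3 the ratio of high glucose to mannitol was 1.20. Apart from miR-669c-5p the rows summed to 90.9, 22.1 and 104 CPM in normal glucose, 38.4, 27.1 and 74.9 CPM with mannitol, and 31.7, 38.4 and 74.8 CPM in high glucose. In that remainder the highest library was replicate 3 in each group.

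The members were set beside other clusters of mouse miRNAs. In the imprinted Dlk1-Dio3 locus, another large cluster expressed from 1 parental allele, 30 of 113 identifiers were listed (26.5%), forming 29 rows, and 17 of these were listed in all 9 libraries. The same count for the miR-297 to miR-669 members was 2 of 13 rows. Over the whole table it was 260 of 479 listed identifiers, with identical rows not collapsed. The leading member of the Dlk1-Dio3 locus, miR-127-3p, took 39.2% of that locus's counts, where miR-669c-5p took 89.5% of the members' counts. At 742 CPM by its mean over all libraries, miR-127-3p lay above miR-669c-5p at 514 CPM, and the next member, miR-409-3p, had 281 CPM. Of the 25 tested rows of the Dlk1-Dio3 locus 0 passed in edgeR in any comparison. The miR-290 to miR-295 cluster, which is active in early embryo and trophoblast as Sfmbt2 is in placenta, had 1 of 18 identifiers listed, miR-292a-5p, in 3 libraries at no more than 12.9 CPM.

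Repeats like those of the members occurred in 5 other identifiers with a RefSeq sequence. Of these, miR-672-5p was listed in all 9 libraries and miR-32-3p, miR-574-5p, miR-1187 and miR-3082-5p in none. The sequences of the listed one and of the one with the longest repeat are shown for comparison, seed in capitals.
miR-672-5p: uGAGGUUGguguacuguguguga
miR-574-5p: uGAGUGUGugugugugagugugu
The longest alternating run was 8 bases in miR-672-5p and 13 in miR-574-5p. The level of miR-672-5p was 88.9 ± 5.28 CPM (normal glucose), 92.4 ± 41.2 CPM (mannitol) and 62.9 ± 28.98 CPM (high glucose), each with its SD over n = 3. It did not pass in edgeR in any comparison.

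Markers of cell types were read in the same libraries. All 5 podocyte-enriched miRNAs checked were listed in all libraries, miR-30a-5p leading. They summed to 144284 to 158013 CPM in normal glucose, 122342 to 198225 CPM with mannitol and 165255 to 241465 CPM in high glucose. In this sum the high glucose libraries lay above all normal glucose libraries and overlapped those of mannitol. Of the 5, 0 passed in edgeR in any comparison, and 4 had a fitted value above 0 in high against normal glucose. The sum was mostly miR-30a-5p, with 68.6% of the counts. Its mean was 95933 ± 9828 CPM in normal glucose and 152745 ± 39064 CPM in high glucose. For miR-23b-3p the means were 646 ± 135 and 593 ± 124 CPM. The 3 muscle markers summed to 1666 to 3029 CPM in normal glucose, 1368 to 5994 CPM with mannitol and 1401 to 1761 CPM in high glucose, and 0 of the 3 had a fitted value above 0 in high glucose in either comparison, with 0 passing in edgeR. Blood and liver markers (5 of 6 listed, miR-142a-3p at 0 throughout) summed to 15503 to 30429 CPM, 15485 to 33492 CPM and 13483.5 to 25601 CPM in the same order. Endothelial markers (2 of 2 listed) lay between 229 and 825 CPM and neural markers (2 of 2) between 13.8 and 273 CPM over all libraries. All CPM, of markers and members alike, are shares of the same library total. The part of these markers in the levels of the miR-297 to miR-669 members was not tested.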

How the data were processed

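Small RNA libraries of vesicles from culture supernatants, 3 in each of 3 groups, were read from tables of 1915 identifiers. Per the file headers, the authors' first column holds total counts, whole numbers used here as deposited. The second column, normalized by the authors per the file headers, holds RPM values, each the count divided by 1 constant per library that no source used here explains. The tools bcl2fastq and BWA and the build mm10 were used per the submitters' processing notes, versions not given in the sources used here. Total counts ranged from 725211 to 2553690, and counts from 1 to 9 did not occur.

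Members were found by name, and rows with identical counts were taken once. CPM used all miRNA counts. Tests used edgeR 4.0.16 in R 4.3.3 (TMM, expression filter by group, robust quasi-likelihood) on all libraries, Benjamini-Hochberg adjusted over all tested identifiers at 0.05. The edgeR steps were tested on simulated counts with the same spread for all identifiers and no removal of counts from 1 to 9. That check therefore does not cover these features of the data. Alternatives used DESeq2 1.42.0, limma-voom (limma 3.58.1), other scalings, no filter, listed zeros as 9 reads, collapsed rows, a replicate block and each library left out. Sums are described with no test.

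Groups came from the treatment labels, and the unnumbered first title of a group was called replicate 1. Whether libraries came from separate cultures is unstated, and p-values then measure the spread between these samples alone, which may be technical. Deviations from group means over 361 miRNAs were correlated between same-numbered libraries. The values were 0.20, 0.32 and 0.24 for high against normal glucose, and 0.45, 0.52 and 0.17 for high glucose against mannitol. For mannitol against normal glucose they were 0.23, 0.083 and -0.058. Libraries of unlike numbers were not correlated, so these values cannot decide whether the numbers pair the libraries. The main fit used no pairing, and the replicate block was an alternative. Within groups a chi-square per degree of freedom of 88.1 to 765 over 9 pairs showed no library repeated inside a group. Pairs of libraries from different groups were not part of this check. Members and lists were chosen with earlier results of these data known. Named were the 12 rows with the highest mean CPM, the leading row of each number, the extreme fold changes among tested rows, the 3 highest rows of a single library, and for each other cluster the 2 highest members. Outside this rule miR-669h-5p was named after its value was seen.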

Additional observations from a re-analysis of the deposited data

How the results depend on the processing

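Of 51 counts of members past the threshold under alternatives, 50 were 0 as reported, and 1 was reached with listed zeros set to 9 reads (mannitol against normal glucose, miR-669n). Of 153 fold changes of the 3 rows under alternatives, 135 kept their sign, none passed (smallest adjusted p 0.647), and 18 turned. Scaled to the library constant, which moved the median of all tested identifiers to -0.59 against mannitol and 0.50 for mannitol against normal glucose, miR-669c-5p had -0.63 and 0.26 and miR-669a-3p -0.14 and 0.36 in these comparisons. Relative to those medians miR-669c-5p had -0.037 and -0.24 and miR-669a-3p 0.45 and -0.14. With listed zeros set to 9 reads miR-466g had 0.084 in high against normal glucose, miR-669c-5p -0.20 against mannitol and miR-669a-3p 0.044 for mannitol against normal glucose. Without the expression filter miR-669c-5p had -0.0022 against mannitol. With a library left out, miR-669c-5p ran from -0.18 to 0.43 against mannitol; it was -0.030 and -0.032 without normal glucose replicates 2 and 3, -0.056 without mannitol replicate 1 and -0.058 without high glucose replicate 2. For mannitol against normal glucose, miR-669a-3p ran from -0.39 to 0.38 and turned without normal glucose replicate 3 or mannitol replicate 2 (0.38, 0.043). In that comparison miR-466g ran from -0.094 to 0.50 and turned without normal glucose replicate 1 or mannitol replicate 3 (-0.094, -0.059). In high against normal glucose miR-466g ran from -0.997 to 0.069 and turned without high glucose replicate 1. The cause was not tested.

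With the number of the titles as a replicate block, no call changed, and miR-669c-5p had -0.36, 0.058 and -0.42 in the 3 comparisons. For miR-466g, whose value moved by over 1.5 times, it was -0.76, -1.09 and 0.34. The summed ratios ran from 0.617 to 0.786, 0.661 to 1.20 and 0.592 to 1.17 over all alternatives, including those without miR-669n or miR-669c-5p, which were chosen after seeing the data. Apart from miR-669c-5p no row had more than 83 counts in a library.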
